A study of Gallus gallus with 8 samples.

Results

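The members described here are the short autosomal genes of the chicken (Gallus gallus) count table, features whose whole genomic span was at most 1000 bp. They were chosen by 3 conditions, which were that span, a position on chromosomes 1 to 15, 17 to 24, 26 or 28, and a minimum of 80 reads over the 8 libraries. Of 30862 features in the table, 1466 met the span and chromosome conditions and 92 met all 3. The cells were green fluorescent (GFP+) primary trunk neural crest cells, migrating cells of the embryo from which sensory neurons, glia and melanocytes arise. Each of the 4 groups held 2 libraries, given Cas9 with a scrambled guide RNA (control), with a guide against DLC1, with a guide against PHF5A or with a guide against SF3B1. The knockout libraries of a group carried different guides, gRNA1 and gRNA2, and the control libraries were replicates 1 and 2. All groups shared the sort for GFP, and about 50000 sorted cells were collected per treatment. The labels give no embryo stage, no separate cultures and no extent of editing, so the spread behind each p-value is that between libraries, which may be technical and holds guide differences too.

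SF3B1 and PHF5A belong to the SF3b complex, with which U2 small nuclear RNA and its proteins find the branch point of an intron during splicing. DLC1 is a GTPase-activating protein. Vertebrate genes with very short spans include intron-poor coding genes, replication-dependent histone genes, microRNAs, and small nuclear and small nucleolar RNAs. Small nucleolar RNAs guide the chemical modification of other RNAs and are mostly released from the excised introns of host genes. Which of these kinds each member belongs to is not known here, because the deposited IDs were paired with no gene names and 0 of them matched the RefSeq table at hand. For the same reason the level of the targeted genes and the markers of neural crest were not analysed here, and since the table held spans and not exons, neither were the members' introns. The libraries were made with a kit for polyadenylated RNA, so the counts need not follow the level of RNAs that lack a poly(A) tail.

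Total counts ran from 18226753 to 34698250 per library, and the DLC1 and PHF5A libraries were the deep ones. Levels are given as CPM, counts per 1000000 counts outside the mitochondrial chromosome, whose share of all counts ran from 21.4% to 25.9% in controls and from 8.01% to 19.6% in knockouts. The W share, used below as a covariate, is the percentage of nuclear counts that fell on W, the sex chromosome of females, and ran from 0.00279% to 0.259%. A count of 3 reads corresponded to between 0.0949 and 0.211 CPM. In bulk samples, fewer cells of a type and less RNA per cell cannot be told apart.

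Reads were present only in short features that were not wholly covered by others. Of the 505 short autosomal features that overlapped no other feature of the table, 48.9% had at least 1 read and 83 were members. Of the 761 that were wholly covered by features of the same strand, 0 had a read in any library. Of the 157 that were wholly covered on the opposite strand only, 0 had a read either, and the other 2 wholly covered features, which needed features of both strands to cover them, were also without reads. Among the 41 that were overlapped in part, 27 had reads and 9 were members. The members are thus short features that stand at least partly clear of other annotated genes, and those nested in a longer gene were not measured by these counts. A read that reached into a member from an unannotated longer transcript could not be told from one that began in it.

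**Figure D1:**
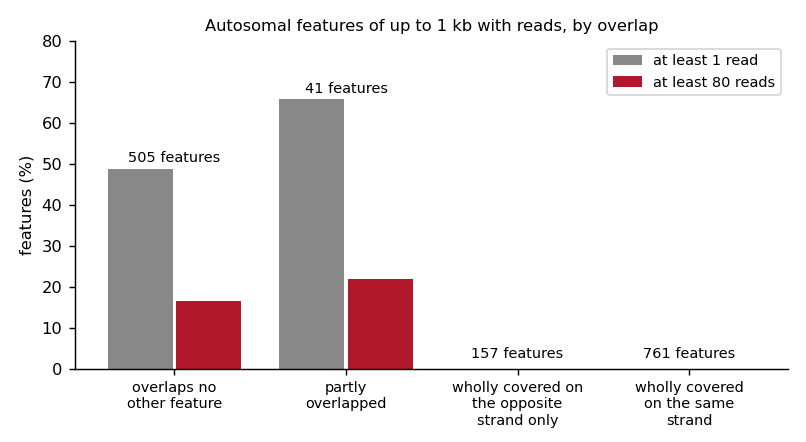
Share of autosomal features of up to 1 kb with at least 1 read (grey bars) and with at least 80 reads over the 8 libraries (red bars), by overlap with other features of the table. The vertical axis is the percentage of the features in each class, whose number is printed above the bars; both wholly covered classes stand at 0.

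The 92 members lay on all 25 chromosomes of the rule, 52 on the plus and 40 on the minus strand, with spans of 62 to 998 bp and a median of 622.5 bp. They fell into 24 of up to 200 bp, 14 of over 200 and up to 500 bp and 54 of over 500 bp. For 58 of them another feature lay less than 1000 bp away, overlapping ones included. Their reads over the 8 libraries ran from 86 to 62250, with a median of 482.5, and all 92 passed the low-count filter of the test. The 5 members with most reads held 50.7% of all reads of the members, and the 20 with most reads held 85.4%. Since the DLC1 and PHF5A libraries were deeper, they weighed more in the minimum of 80 reads. Some members of few reads met that minimum only through the libraries where they were high. Counts of rising and falling members against control, given below, include such features and so are not independent of the choice of members.

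Levels were compared between members per kilobase of span. The highest was a feature of 503 bp on chromosome 19 (5350406 to 5350908, plus strand), at 672 CPM per kb on average over the libraries. It overlapped a feature of its own strand over 14.1% of its span. Its level was 313 and 453 CPM in controls, 365 and 331 in DLC1 knockout, 354 and 420 in PHF5A knockout, and 211 and 258 in SF3B1 knockout. The SF3B1 libraries lay below all 6 others, and the remaining groups overlapped. Against control it fell in SF3B1 knockout (edgeR: log2 fold change -0.97, SE 0.23, adjusted p = 0.0226), with the call lost without control 2 or the first SF3B1 guide (adjusted p up to 0.152), with scaling by library size alone (0.0826) and with W share as covariate (0.238). In DLC1 and PHF5A knockout it was not called, at log2 fold changes of -0.33 and -0.24 (SE 0.23 each; edgeR adjusted p = 0.324 and 0.433).

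Next in level per kilobase came a feature of 768 bp on chromosome 23 (1655751 to 1656518, plus strand), at 285 CPM per kb. It stood at 303 and 400 CPM in controls, 147 and 179 in DLC1, 116 and 187 in PHF5A, and 165 and 257 in SF3B1 knockout. All 6 knockout libraries lay below both controls. It fell in all 3 knockouts, with log2 fold changes of -1.29 (DLC1), -1.47 (PHF5A) and -0.998 (SF3B1), an SE of 0.30 to 0.31 and edgeR adjusted p of 0.0196, 0.00698 and 0.0496. The DLC1 call was lost without control 2 or either DLC1 guide (adjusted p up to 0.122), and the SF3B1 call without any of 5 libraries (both controls, both DLC1 guides and the first SF3B1 guide; up to 0.266), with scaling by library size alone (0.101) and with W share as covariate (0.298). The third, of 379 bp on chromosome 13 (12761145 to 12761523, minus strand) at 197 CPM per kb, stood at 65.3 ± 1.24 CPM in controls and, for knockout of DLC1, PHF5A and SF3B1 in that order, 84.6 ± 4.44, 77.7 ± 1.73 and 70.4 ± 1.11 (SD, n = 2 per group). Every knockout library lay above both controls in CPM, but edgeR called it in none of these 3 comparisons, with adjusted p of 0.412, 0.998 and 0.509 and an SE of 0.16 on the log2 scale. Its log2 fold change in DLC1 knockout was 0.19, and 0.57 when scaled by library size alone (adjusted p = 0.0454). Log2 fold changes rest on a scaling by trimmed mean of M-values (TMM) over all features, so they differ from ratios of CPM.

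Added over all members, the level was 1801 and 2375 CPM in controls, 1407 and 1452 in DLC1, 1216 and 1700 in PHF5A, and 1301 and 1699 in SF3B1 knockout, so every knockout library lay below both controls. Most of this came from the members of over 500 bp, whose sum was 1850 ± 382 CPM in controls and, for knockout of DLC1, PHF5A and SF3B1 in that order, 1210 ± 30.5, 1242 ± 309 and 1225 ± 256 (SD, n = 2 per group). A few features weigh heavily in these sums. Those of 768, 614 and 644 bp on chromosomes 23, 10 and 28 had means of 352, 168 and 129 CPM in controls and 163, 45.8 and 44.5 in DLC1 knockout. Of the 54 members of over 500 bp, 19 had a positive log2 fold change in DLC1 knockout. Members of over 200 and up to 500 bp summed to between 156 and 216 CPM, with overlapping groups. Members of up to 200 bp went another way. Their sum was 35.2 and 43.2 CPM in controls, 36.6 and 30.8 in DLC1, 36.0 and 52.8 in PHF5A, and 68.9 and 77.4 in SF3B1 knockout, where both libraries lay above the other 6. Within each knockout the library with the lower mitochondrial share (9.65%, 8.01% and 9.44% for DLC1, PHF5A and SF3B1, against 15.7%, 19.6% and 18.0%) also had the lower sum over all members. The controls ran the other way, with 25.9% beside the sum of 1801 and 21.4% beside 2375. For spans of up to 200 bp the DLC1 libraries also ran the other way, with 9.65% beside 36.6 CPM and 15.7% beside 30.8. The part of the mitochondrial share in the result was not tested.

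**Figure D2:**
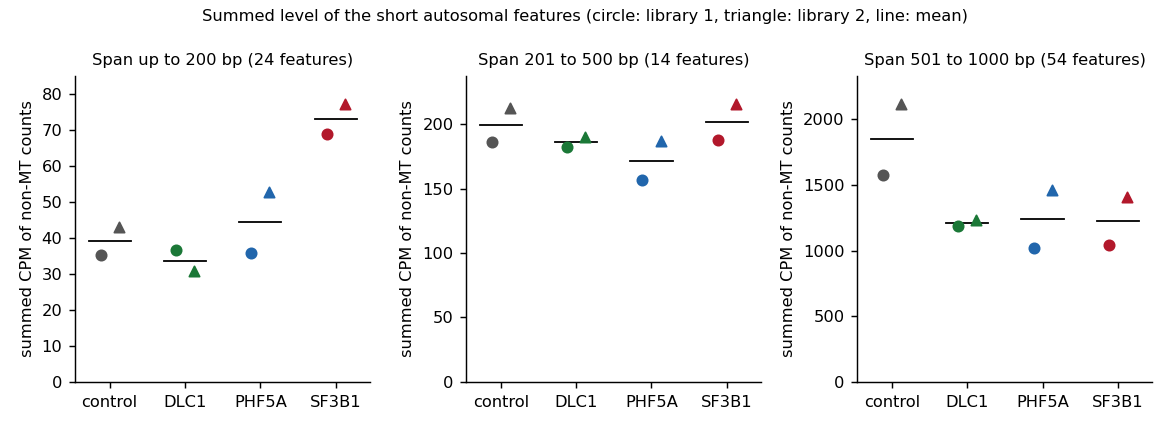
Summed level of the members in CPM of non-mitochondrial counts (vertical axes, from 0) by group, in panels for 3 classes of span; circles are control replicate 1 or guide 1, triangles replicate 2 or guide 2, and lines the mean of both. Both SF3B1 libraries stand above the other 6 for spans of up to 200 bp, and all 6 knockout libraries stand below both controls for spans of over 500 bp.

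In DLC1 knockout more members fell than rose: 19 of 92 fell and 4 rose (edgeR quasi-likelihood test, adjusted p under 0.05 over all features tested). Of all 15619 features tested, 18.2% were called, 7.88% falling and 10.3% rising. Of the 1124 autosomal features of 1 to 3 kb, 178 fell and 55 rose (20.7% called). In CPM both DLC1 libraries lay above both controls in 22 members and below both in 35, against 47.2% and 19.6% of all features. The members' median log2 fold change was -0.37, that of all features 0.10 and that of the 1124 tested autosomal features of 1 to 3 kb -0.27. Of 232 autosomal features over 300 kb, 217 were tested, with a median of 0.68. By span, 16 of 54 members of over 500 bp fell and 2 rose (median -0.53), while of the 24 of up to 200 bp 2 fell and 2 rose (median -0.39) and of the 14 in between 1 fell (median -0.08). Among the 31 members of highest CPM 12 fell and 1 rose, and among the 30 of lowest CPM 1 fell and 1 rose.

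ENSGALG00000053991, a feature of 614 bp on chromosome 10 (20570656 to 20571269, minus strand), stood at 120 and 215 CPM in controls and at 54.2 and 37.5 in DLC1 knockout. It fell (edgeR: log2 fold change -2.07, SE 0.35, adjusted p = 0.00738), and its adjusted p reached 0.0517 without the second DLC1 guide. ENSGALG00000030920, of 957 bp on chromosome 24 (5138762 to 5139718, plus strand), went from 24.6 and 21.9 CPM to 3.89 and 3.21 (edgeR: log2 fold change -2.89, SE 0.53, adjusted p = 0.00925). Features of its own strand overlapped 6.48% of its span and features of the opposite strand 40.9%, and its adjusted p was 0.0683 and 0.0584 without the first and the second DLC1 guide. For both features both DLC1 libraries lay below both controls. The SF3B1 libraries of the latter differed from each other, at 7.22 and 21.8 CPM.

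The 4 that rose include the features of 119 bp on chromosome 9 and of 114 bp on chromosome 1 described below. Both met the minimum of 80 reads only through knockout libraries. Among the 4, ENSGALG00000013862, of 822 bp on chromosome 3 (54793588 to 54794409, plus strand), went from 8.38 and 7.47 CPM in controls to 17.7 and 26.1 in DLC1 knockout (edgeR: log2 fold change 1.30, SE 0.33, adjusted p = 0.0253). ENSGALG00000051635, of 742 bp on chromosome 17 (3587444 to 3588185, plus strand), went from 1.55 and 3.14 to 7.39 and 5.27 CPM (edgeR: log2 fold change 1.23, SE 0.37, adjusted p = 0.0445). Neither overlapped another feature. The first lost its call without any 1 of the 4 libraries compared (adjusted p up to 0.141) and with W share as covariate (0.0518). The second lost it without those 4 or either SF3B1 library (up to 0.224) and with median-ratio size factors (0.051).

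The number of members called in DLC1 knockout was 3 without control 2, 2 without the first DLC1 guide and 1 without the second, and 10 with W share as covariate. The share of all features called fell too, from 18.2% to 2.09%, 1.95%, 6.05% and 11.8% in that order. With scaling by library size alone, 7 rose and 8 fell, and the members' median was 0.02 beside 0.48 for all features.

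**Figure D3:**
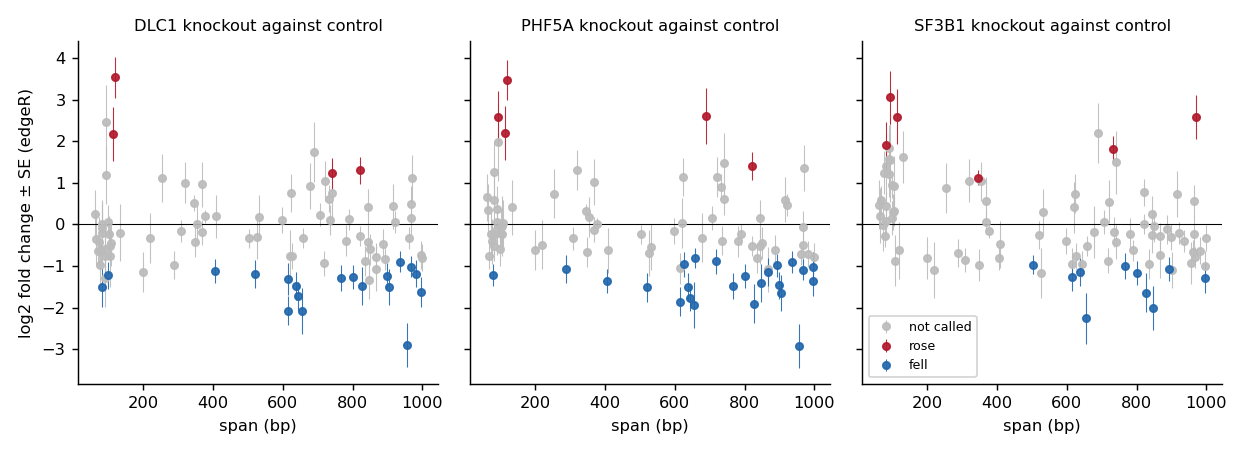
Log2 fold change against control (vertical axis, points with SE bars from edgeR) of the 92 members by span in bp (horizontal axis), in panels for DLC1, PHF5A and SF3B1 knockout; red points rose, blue points fell and grey points were not called. Blue points gather at spans over 500 bp. In SF3B1 knockout 20 of the 24 points at spans of up to 200 bp lie above 0. Some of these features met the read minimum only with the SF3B1 libraries included, so this count is not independent of the choice of members.

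In PHF5A knockout the longer members likewise supplied most of the calls. Of the 92 members 24 fell and 5 rose, against 31.3% called, 13.4% falling and 17.9% rising, of all features tested. Of the 1124 tested autosomal features of 1 to 3 kb, 291 fell and 84 rose (33.4% called). The median log2 fold change was -0.40 for the members, 0.10 for all features, -0.41 for autosomal features of 1 to 3 kb and 0.50 for those over 300 kb. Of the members of over 500 bp 21 of 54 fell and 2 rose (median -0.70), and of those of up to 200 bp 1 of 24 fell and 3 rose (median -0.01), while 2 of the 14 in between fell (median -0.23). Among the 31 members of highest CPM 18 fell and 1 rose, and among the 30 of lowest CPM 2 fell and 2 rose. Both PHF5A libraries lay above both controls in 21 members and below both in 29, against 49.9% and 19.3% of all features. The comparisons with control share the same control libraries, so these counts are not independent of those for DLC1.

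ENSGALG00000030920 stood at 5.19 and 2.06 CPM in PHF5A knockout, below both controls (edgeR: log2 fold change -2.92, SE 0.53, adjusted p = 0.00411; at most 0.0163 with any 1 library left out). ENSGALG00000059584, of 828 bp on chromosome 26 (3165460 to 3166287, minus strand), went from 11.5 and 7.82 CPM in controls to 1.58 and 4.55 (edgeR: log2 fold change -1.90, SE 0.46, adjusted p = 0.0129; 0.0616 without control 1). ENSGALG00000013862 also rose, to 17.9 and 31.7 CPM (edgeR: log2 fold change 1.40, SE 0.33, adjusted p = 0.012), and lost its call without control 2 (0.0633) or the second PHF5A guide (0.0553). It was the only rising member that met the level and separation required of a named feature. The number of members called was 9 without control 2 and 18 without the first PHF5A guide, where 13.7% and 20.03% of all features were called. With scaling by library size alone 12 rose and 11 fell, and the median was 0.03 beside 0.53 for all features.

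In SF3B1 knockout the shortest members lay mostly above control and the longer ones mostly below. Of the 92 members 10 fell and 6 rose, against 16.1% called, 5.03% falling and 1721 of 15619 rising, of all features tested. Both SF3B1 libraries lay above both controls in 31 members and below both in 27, against 49.5% and 15.7% of all features. All 10 that fell were among the 54 of over 500 bp, whose median log2 fold change was -0.40 and of which 2 rose; 1 of the 14 between 200 and 500 bp rose (median -0.32). Of the 24 members of up to 200 bp, 3 rose, 0 fell and 20 had a positive fold change, with a median of 0.76, where DLC1 and PHF5A knockout had medians of -0.39 and -0.01. Some of the 20 met the read minimum only with the SF3B1 libraries included, so this count and median depend on how the members were chosen. Over all members the median was -0.19, beside 0.04 for all features, -0.28 for autosomal features of 1 to 3 kb and -0.09 for those over 300 kb. Of the 1124 tested autosomal features of 1 to 3 kb, 96 fell and 45 rose (12.5% called). By level, 7 of the 31 members of highest CPM fell and 1 rose (median -0.79). Of the 30 of lowest CPM 2 fell and 3 rose (median 0.51). The shortest members were also of lower level in CPM, with a median of 1.395 CPM at up to 200 bp and 6.25 at over 500 bp. Per kilobase of span the order was the reverse, with medians of 15.2 and 7.11 CPM per kb. Whether the direction goes with span or with level was not tested.

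ENSGALG00000032545, of 345 bp on chromosome 4 (46797201 to 46797545, minus strand), stood at 17.2 and 18.2 CPM in controls, 30.4 and 27.3 in DLC1, 24.7 and 27.6 in PHF5A, and 43.9 and 48.6 in SF3B1 knockout. It rose in SF3B1 knockout (edgeR: log2 fold change 1.12, SE 0.19, adjusted p = 0.00801), and kept its call without any 1 library (at most 0.0481) but not with W share as covariate (0.0949). ENSGALG00000060222, of 733 bp on chromosome 4 (85631795 to 85632527, plus strand), had 1.27 and 1.12 CPM in controls and 5.76 and 4.34 in SF3B1 knockout (edgeR: log2 fold change 1.81, SE 0.32, adjusted p = 0.00952). Its call was lost without control 2 (0.0572), without the first SF3B1 guide (0.0882) and with W share as covariate (0.115). In both features the SF3B1 libraries lay above the other 6.

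Of those that fell, ENSGALG00000059584 had 2.82 and 4.54 CPM (edgeR: log2 fold change -1.65, SE 0.47, adjusted p = 0.0399), and ENSGALG00000040180, of 996 bp on chromosome 2 (107911432 to 107912427, minus strand), went from 11.4 and 14.3 CPM in controls to 5.98 and 6.70 (edgeR: log2 fold change -1.29, SE 0.37, adjusted p = 0.0404). Both lost their calls without either control, either DLC1 library or the first SF3B1 guide, the latter feature also without the second (adjusted p up to 0.231 and 0.208), and with scaling by library size alone (0.0582 and 0.104) or the W share as covariate (0.114 and 0.217).

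The count of called members in SF3B1 knockout moved with single libraries, as did the share of all features. It was 8 without control 1, 2 without control 2, 1 without the first SF3B1 guide, and 29 and 25 without the first and the second PHF5A guide. The shares of all features called were 5.36%, 3.53%, 0.906%, 22.2% and 20.9% in that order, against 16.1% with every library. With scaling by library size alone 13 rose and 0 fell, and the median was 0.25 beside 0.49 for all features. DESeq2 called 5 rising and 21 falling members. With the W share as covariate edgeR called 0 members and 0.0128% of all features, and 16 members had an unadjusted p under 0.05. The W share was 0.198% and 0.00279% in the 2 controls and 0.259% and 0.193% in the SF3B1 libraries, and its part in the result was not tested.

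**Figure D4:**
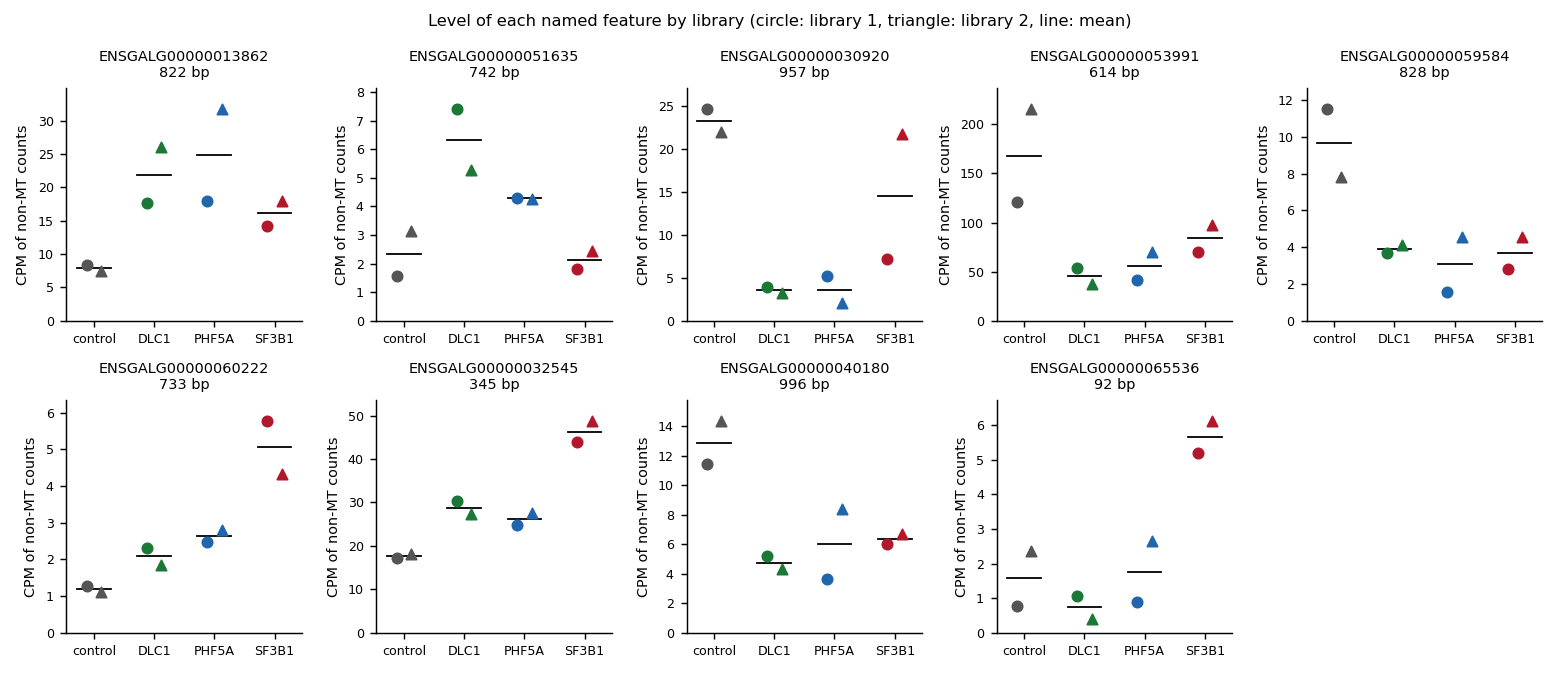
Level in CPM of non-mitochondrial counts (vertical axes, from 0) of each feature named by ID, by group; circles are control replicate 1 or guide 1, triangles replicate 2 or guide 2, and lines the mean of both. ENSGALG00000053991 falls from 120 and 215 CPM in controls to between 37.5 and 97.6 CPM in the 6 knockout libraries, and ENSGALG00000032545 is highest in both SF3B1 libraries.

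Among the members of up to 200 bp, 13 of 24 lay in 4 groups of neighbours, in which each feature followed the last on the same strand within 5000 bp. This grouping was chosen after the values were seen, so the summed levels are given without a test. The group on chromosome 20 (6466302 to 6469119, plus strand), held 4 features of 92 to 95 bp in 2818 bp with no other feature between them. Its summed level was 2.46 and 6.42 CPM in controls, 4.53 and 2.09 in DLC1, 4.55 and 10.2 in PHF5A, and 15.4 and 20.8 in SF3B1 knockout. On chromosome 8 (7792061 to 7793952, plus strand), 5 features of 67 to 84 bp lay within 1892 bp, with a sum of 6.41 and 11.5 CPM in controls, 6.55 and 2.77 in DLC1, 7.53 and 13.1 in PHF5A, and 14.7 and 17.4 in SF3B1 knockout. In both groups the SF3B1 libraries were the highest of the 8 and the second DLC1 guide was the lowest.

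The pairs on chromosome 7 (16274151 to 16279016, minus strand) and chromosome 14 (4400579 to 4402810, plus strand) also had their highest sums in both SF3B1 libraries, at 9.59 and 10.1 CPM against 2.67 to 6.72 in the other 6 and at 4.85 and 5.13 CPM against 2.61 to 3.90. The interval on chromosome 7 held 3 features, and the 2 members among them differed. The one of 99 bp stood at 3.92 ± 0.77 CPM in controls and 9.13 ± 0.0913 in SF3B1 knockout, and the one of 110 bp at 1.09 ± 0.44 and 0.723 ± 0.464 (SD, n = 2 each). Of the 13 features in these groups, 12 had a positive log2 fold change in SF3B1 knockout (median 1.21). The 13 lie in only 4 groups, formed after the values were seen, and neighbours need not vary independently, so this count is a description only. The feature of 67 bp on chromosome 8, one of the 12, met the read minimum only with the SF3B1 libraries included. Of the 13, 2 were called, a share of 15.4% that is close to the 16.1% of all features. These were the last feature of the group on chromosome 20, of 95 bp, and the last of that on chromosome 8, of 84 bp (edgeR: log2 fold change 1.90, SE 0.56, adjusted p = 0.0456). The second lost its call without any 1 of the 4 libraries compared (adjusted p up to 0.163), with DESeq2 (0.0533) and with W share as covariate (0.193). The first had 2 and 6 reads in controls, 40 and 76 in the PHF5A libraries and 45 and 48 in the SF3B1 libraries. This feature met the read minimum only through knockout libraries, so it is described without test values. The counts above include its calls, as rising in PHF5A and SF3B1 knockout, and those calls rest on the same choice of members. Its SF3B1 call was lost without control 1, without the first SF3B1 guide or with W share as covariate. Its PHF5A call was lost without control 1 or the second PHF5A guide.

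**Figure D5:**
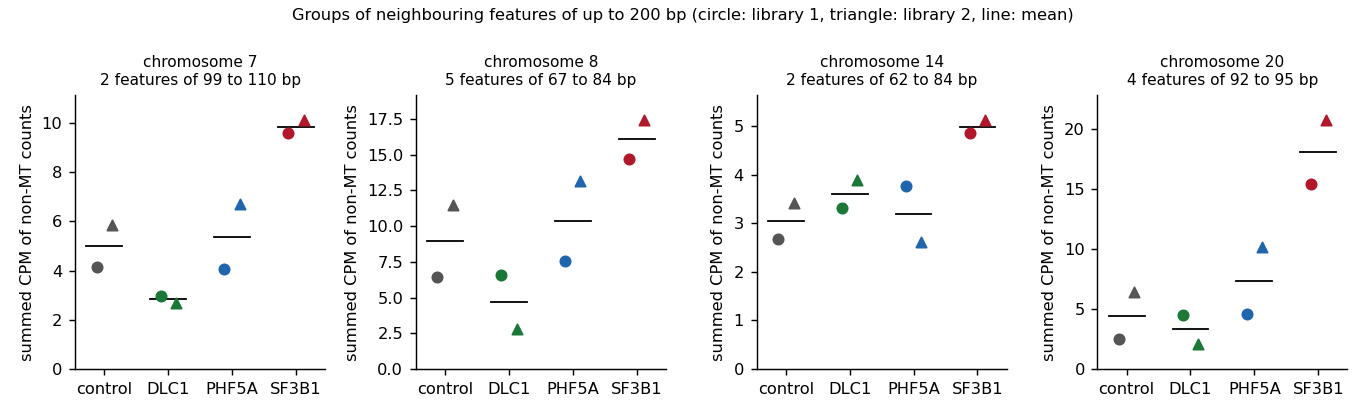
Summed level in CPM of non-mitochondrial counts (vertical axes, from 0) of the 4 groups of neighbouring members of up to 200 bp, by group of libraries; circles are control replicate 1 or guide 1, triangles replicate 2 or guide 2, and lines the mean of both. In each panel both SF3B1 libraries, at 15.4 and 20.8 CPM on chromosome 20, stand above the other 6.

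The knockouts were then compared with each other. SF3B1 against DLC1 knockout gave 9 called members, 7 higher and 2 lower in SF3B1, against 4.98% called, 2.52% higher and 2.46% lower, of all features. Both SF3B1 libraries lay above both DLC1 libraries in 42 members and below in 15, against 34.5% and 24.3% of all features. Of the 7 that were higher, 6 spanned at most 200 bp, and 5 of these belonged to the groups of neighbours, which were chosen after the values were seen. The median log2 difference was 0.29 over all members, 1.05 over the 24 of up to 200 bp and 0.16 over the 54 of over 500 bp, beside 0.00 for all features. Within the 24 it was 1.81 over the 13 in the groups of neighbours and 0.42 over the 11 others. ENSGALG00000065536, of 92 bp and the first feature of the group on chromosome 20 (6466302 to 6466393, plus strand), stood at 5.19 and 6.11 CPM in SF3B1 and 1.06 and 0.41 in DLC1 knockout (edgeR: log2 difference 2.86, SE 0.63, adjusted p = 0.037). ENSGALG00000051635 was lower in SF3B1 knockout, at 1.81 and 2.43 CPM against 7.39 and 5.27 (edgeR: log2 difference -1.65, SE 0.37, adjusted p = 0.0381). Both calls were lost without any 1 of the 4 libraries compared (adjusted p up to 0.285 and 0.202) and with W share as covariate (0.133 and 0.177), and the second also with scaling by library size alone (0.0635). The count of 9 went to 5 and 0 without the first and the second DLC1 guide, to 2 and 1 without the first and the second SF3B1 guide, to 4 with scaling by library size alone, and to 1 with W share as covariate. The shares of all features called were 3.48%, 0.00645%, 0.201%, 0.151%, 2.11% and 0.102% in that order, against 4.98%. Without the second DLC1 guide 15 members still had an unadjusted p under 0.05.

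Between PHF5A and DLC1 knockout edgeR called 0 members (6 had an unadjusted p under 0.05, and DESeq2 called 0), against 0.00640% of all features. SF3B1 against PHF5A knockout gave 1 called member, lower in SF3B1, against 1.11% of all features called and 0.749% lower. This member was the feature on chromosome 9 described next. It met the read minimum only through the DLC1 and PHF5A libraries, so its call depends on how the members were chosen. Both SF3B1 libraries lay above both PHF5A libraries in 31 members and below in 8, against 26.3% and 21.8% of all features. The count was 2 without the first SF3B1 guide, and 0 without the second (15 with an unadjusted p under 0.05) and with W share as covariate (16), where 0.189%, 0.0181% and 0% of all features were called. The median log2 difference between SF3B1 and PHF5A was 0.24 over all members and 0.65 over those of up to 200 bp.

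A feature of 119 bp on chromosome 9 (3552456 to 3552574, plus strand), singled out after its values were seen, had 7 and 3 reads in controls and 6 and 3 in the SF3B1 libraries, but 128 and 151 in the DLC1 and 113 and 157 in the PHF5A libraries. In CPM it stood at 0.351 ± 0.2 in controls and, for knockout of DLC1, PHF5A and SF3B1 in that order, 4.64 ± 0.743, 4.67 ± 1.55 and 0.268 ± 0.1 (SD, n = 2 per group). It met the minimum of 80 reads only through the DLC1 and PHF5A libraries, so the difference is given as a description without test values. The counts above include its calls, as rising in DLC1 and PHF5A knockout and as lower in SF3B1 against each of these. Those calls rest on the same choice of members. Another feature lay 4 bp away. The libraries where it was high are the 4 deep ones, so depth and knockout cannot be told apart here. In all, 4 members, this feature among them, lay higher and 10 lower in the 4 deep libraries than in the other 4 without overlap, against 9.35% and 6.72% of all features.

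Across all 6 knockout libraries, 17 of 92 members (18.5%) lay below both controls and 13 (14.1%) above both in CPM, against 8.32% and 29.9% of all features tested. Each of these counts includes members of few reads that met the minimum of 80 only through the side where they were high. A feature of 644 bp on chromosome 28 (723227 to 723870, minus strand), chosen after its values were seen, is an example of those below both controls. It stood at 108 and 149 CPM in controls, 44.0 and 45.0 in DLC1, 32.04 and 58.6 in PHF5A and 62.2 and 97.3 in SF3B1 knockout. It fell in DLC1 (edgeR: log2 fold change -1.72, SE 0.33, adjusted p = 0.0105; lost without control 2 or either DLC1 guide, up to 0.0775) and in PHF5A knockout (-1.76, SE 0.33, edgeR adjusted p = 0.00446), and was not called in SF3B1 knockout (-0.95, SE 0.32, edgeR adjusted p = 0.0666), where DESeq2 called it (adjusted p = 0.00918). At 8.39% of its span it overlapped a feature of the opposite strand. Of the members above both controls, another chosen in the same way, a feature of 114 bp on chromosome 1 (134763909 to 134764022, minus strand) had 1 and 2 reads in controls and between 12 and 21 in the knockout libraries. It met the minimum of 80 reads only through the knockout libraries, so it too is described with no test.

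The members were also split by chromosome. In DLC1 knockout 9 of 47 members on chromosomes 1 to 10 fell and 3 rose, and 10 of 45 on the smaller chromosomes fell and 1 rose. The numbers were 10 and 4, and 14 and 1, in PHF5A knockout, and 3 and 4, and 7 and 2, in SF3B1 knockout. Of all features tested, 7.88% fell and 10.3% rose in DLC1, 13.4% fell and 17.9% rose in PHF5A, and 5.03% fell and 1721 of 15619 rose in SF3B1 knockout. Just inside the span limit lay features of 996 and 998 bp, with mean levels of 12.9 and 14.2 CPM in controls and 6.34 and 13.6 in SF3B1 knockout. Just outside lay features of 1003 and 1004 bp, with 19.7 and 0.878 CPM in controls and 21.1 and 0.512 in SF3B1 knockout. The members with fewest reads had 86 and 87, at 0.28 and 0.105 CPM in controls and 1.06 and 0.372 in SF3B1 knockout, and the short features just under the minimum had 75 and 76, at 0.0352 and 0.352 CPM in controls and 0.348 and 0.362 in SF3B1 knockout.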

How the data were processed

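RNA was measured in 8 libraries of sorted cells, 2 per group, made with a stranded kit for polyadenylated RNA, per the labels' protocols. The deposited values are raw counts for each Ensembl ID. Per the submitters' processing notes, the tools listed are STAR 2.7.11b, featureCounts 1.5.3, Trimmomatic 0.39 and FastQC 0.12.1, and the build is GRCg6a. Not given in the sources used here were the strand setting, the annotation release and how reads meeting several features were treated. The length in the table equalled the span from start to end in 100% of rows. Coordinates are on GRCg6a, 1-based.

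All 8 libraries entered one fit over the whole table with edgeR 4.0.16 (R 4.3.3): filterByExpr (15619 of 30862 features, all 92 members), TMM scaling and the robust quasi-likelihood F-test, with p-values adjusted by Benjamini-Hochberg over all tested features. A feature was called at an adjusted p under 0.05. SE was derived from the F statistic and log2 fold change. CPM divide counts by the library's non-mitochondrial total, without TMM. The test was checked on simulated counts. Depth limits features of few reads, and counting floors cover counting error only. Features named by ID were the first 2 rising and 2 falling of each knockout by absolute fold change, called, with libraries apart from both controls and at least 5 CPM in either group, and the first of each direction between knockouts. The members and lists were chosen with earlier results of these data known. Alternatives were other scalings, no filter, DESeq2 1.42.0, mitochondrial features removed, the W share as covariate, a replicate block and each library left out. No sequence of the build was at hand.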

Additional observations from a re-analysis of the deposited data

How the results depend on the processing

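The counts of members called stayed within 1.5 times of their value with median-ratio size factors and with mitochondrial features removed, in all 6 comparisons. With no filter on low counts they were 38 in SF3B1 knockout, 2 between PHF5A and DLC1, 22 between SF3B1 and DLC1 and 13 between SF3B1 and PHF5A, where 17.9%, 3.18%, 11.4% and 4.998% of all features were called. DESeq2 gave 26, 14 and 8 for SF3B1 against control, DLC1 and PHF5A (23.5%, 12.5% and 4.75% of all features). Scaling by library size alone gave 15 in DLC1 knockout and 4 between SF3B1 and DLC1 (25.5% and 2.11% of all features), and W share as covariate gave 10 in DLC1 knockout, 0 in SF3B1 knockout, 1 between SF3B1 and DLC1 and 0 between SF3B1 and PHF5A (11.8%, 0.0128%, 0.102% and 0% of all features). The cause was not tested. With 1 library left out, the counts ran from 1 to 28 in DLC1, 9 to 30 in PHF5A and 1 to 29 in SF3B1 knockout, from 0 to 12 between SF3B1 and DLC1 and from 0 to 2 between SF3B1 and PHF5A, while the shares of all features called ran from 1.95% to 22.9%, 13.7% to 29.3%, 0.906% to 22.2%, 0.00645% to 10.6% and 0.0181% to 0.794%. A group reduced to 1 library was assumed to vary like the others. The labels' numbers do not pair the samples, and the deviations of same-numbered libraries correlated at r from -0.22 to 0.28 across 15619 genes, which are not independent replicates. With the replicate number as a block the counts were 33 for SF3B1 against control, 15 against DLC1 and 6 against PHF5A (25.9%, 11.7% and 3.74% of all features), and no other moved by over 1.5 times. With the DLC1 numbers crossed, a choice made after seeing the data, 28 members were called in DLC1 and 33 in PHF5A knockout, 31 in SF3B1 knockout, 20 between SF3B1 and DLC1, 7 between SF3B1 and PHF5A and 0 between PHF5A and DLC1 (25.5%, 37.2%, 24.3%, 14.5%, 3.59% and 1.06% of all features). Reversals of sign concerned log2 fold changes that were not called. The 503 bp feature on chromosome 19 turned to 0.051 in DLC1 and 0.18 in PHF5A knockout when scaled by library size alone, and with 1 library left out ran from -0.59 to 0.0094 and from -0.51 to 0.096. The 379 bp feature on chromosome 13 turned to 0.43 in PHF5A and 0.29 in SF3B1 knockout when scaled by library size alone, and in PHF5A knockout ran from -0.050 to 0.021 with 1 library left out. In the same way the 119 bp feature on chromosome 9 ran from -1.08 to 0.070 in SF3B1 knockout, and the 768 bp feature on chromosome 23 from -0.15 to 0.62 between SF3B1 and DLC1.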
